A study of Rattus norvegicus with 140 samples.

Results

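Gene expression was compared between the whole lungs of 6 rats killed at the maximum core temperature (TcMax) and those of 6 time-matched control rats, which are 12 of the 140 arrays of the series. The lungs were chosen by their sample labels alone, so no measured value decided which arrays were compared. All rats were male Fischer 344, 2 to 3 months old, carried a telemetry transmitter that recorded core temperature, and were housed at 22°C. Heat-stressed rats were warmed in an incubator set to 37°C and were killed once core temperature stood at 41.8°C. The labels describe controls as placed briefly in the incubator at ambient temperature until core temperature settled at or below 37.3°C, whereas the study's methods describe them as not introduced to it, and which of these holds is not settled here. By the study's methods, heat-stressed rats were placed in the incubator at 22°C, 24 h before heating. The methods also describe deep isoflurane anaesthesia before blood was drawn from the heart. No allele, transgene or other drug treatment is given for either group. Whole lung holds epithelium, vessels, resident and blood leukocytes and any blood left in the organ, and whether the lungs were flushed of blood is not given in the sources used here. Lungs taken 24 h or 48 h after heating, with their controls, also entered the choice of transcripts tested and the estimate of spread. Beyond that, they and the heart, liver and kidney arrays at TcMax were used only to show where the hot lung differed.

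Cells meet heat with the heat shock response, in which heat shock factor 1 binds short inverted repeats in promoters and switches on chaperones that hold or refold damaged proteins. In the lung, gas passes between thin alveolar type 1 cells and a dense bed of capillary endothelium, alveolar type 2 cells make surfactant, and many leukocytes lodge in the capillaries. A hot animal also releases catecholamines and glucocorticoids, hormones with target genes of their own in most tissues.

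The values are intensities of an Affymetrix Rat Gene ST array and are given here as log2(intensity + 16), so that 1 unit is a 2-fold change of the intensity with its offset. Differences are heated minus control ± the standard error (SE) of the limma fit, and the adjusted p is Benjamini-Hochberg over 14607 transcript IDs, the 50% that varied most over all 35 lung arrays. Calls required both an adjusted p under 0.05 and a 2-fold or larger change. Array medians lay between 6.24 and 6.4, and the first principal component of the 12 arrays, with 37.3% of their variance, separated heated from control lungs. Precision is limited by the 6 arrays of each group. The p-values rest on the spread between rats within groups, pooled over the 35 lung arrays of all times.

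The organ label held for the lung-defining genes. In control lungs the surfactant gene Sftpc averaged 12.57, against 4.36 in heart, 4.66 in liver and 5.13 in kidney on arrays that were normalized separately, and the club cell gene Scgb1a1 averaged 12.69 in lung against 4.53, 4.58 and 5.16. Marco, a scavenger receptor of alveolar macrophages, averaged 5.13 in lung and Mpo, a granule enzyme of neutrophil precursors, 4.68, both near the low end of the scale. Some lung arrays also carried transcripts of other organs. The mean of 21 hepatocyte genes was 8.81 in heated replicate 1 and 7.60 in heated replicate 2, against 5.34 to 5.59 in the other heated lungs and 5.46 to 6.21 in the controls. The mean of 12 kidney tubule genes was 6.44 in heated replicate 6 and 6.22 in heated replicate 1, against 5.06 to 5.60 in the other heated lungs and 5.03 to 5.26 in the controls. These lists were drawn up after the values were seen. Of their genes only the haem carrier Hpx was called, and it was not without heated replicates 1 and 2 (0.79 in place of 1.48). Every gene list below was counted again without these arrays. Heated replicates 1 and 2 share a prefix of the animal tag that no other heated lung at TcMax carries, and the 2 controls with that prefix were kept, so these recounts also remove a tag group on the heated side alone. With the prefix as a block in the full fit 258 IDs rose and 93 fell. Lung arrays of the other times also carried liver and kidney transcripts, controls included. The hepatocyte mean reached 7.24 in controls and 8.67 in heated lungs at 24 h, and 7.45 and 6.85 at 48 h. The kidney tubule mean reached 5.52 and 7.22 at 24 h, and 5.98 and 6.44 at 48 h. No array of these times was left out in the recounts.

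**Figure D1:**
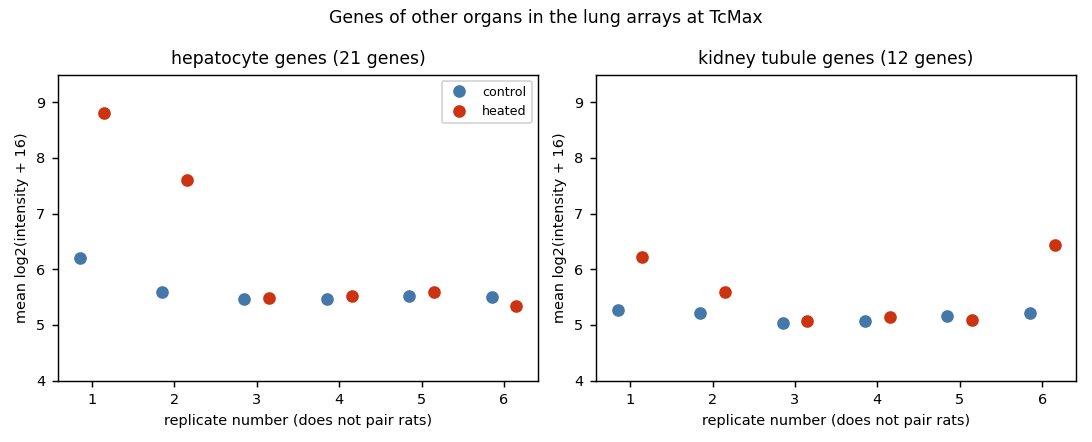
Mean log2(intensity + 16) of the hepatocyte genes (21 genes, left) and of the kidney tubule genes (12 genes, right) in each lung array at TcMax, with 1 point per array for control and heated rats against the replicate number, which does not pair rats. Heated replicates 1 and 2 stand high in the hepatocyte genes and heated replicates 1 and 6 in the kidney tubule genes.

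At TcMax 258 IDs rose (1.77% of those tested) and 92 fell (0.630%). Of the rises 170 carried a single gene symbol (157 distinct symbols), 5 several and 83 none, and of the falls 65 carried a single symbol (64 distinct), 6 several and 21 none. The heated and control arrays did not overlap for 240 of the rises and 81 of the falls. Rises were larger than falls at the top of the range, since 41 rises and 4 falls passed 4-fold. Without a fold minimum the balance turned, and 1457 IDs (9.97%) were higher and 1749 (12.0%) lower at an adjusted p under 0.05. The count of falls was 239 with an offset of 1 in place of 16, and 125 without control replicate 6. Of the calls, 212 rises and 83 falls were also called without heated replicates 1 and 2.

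**Figure D2:**
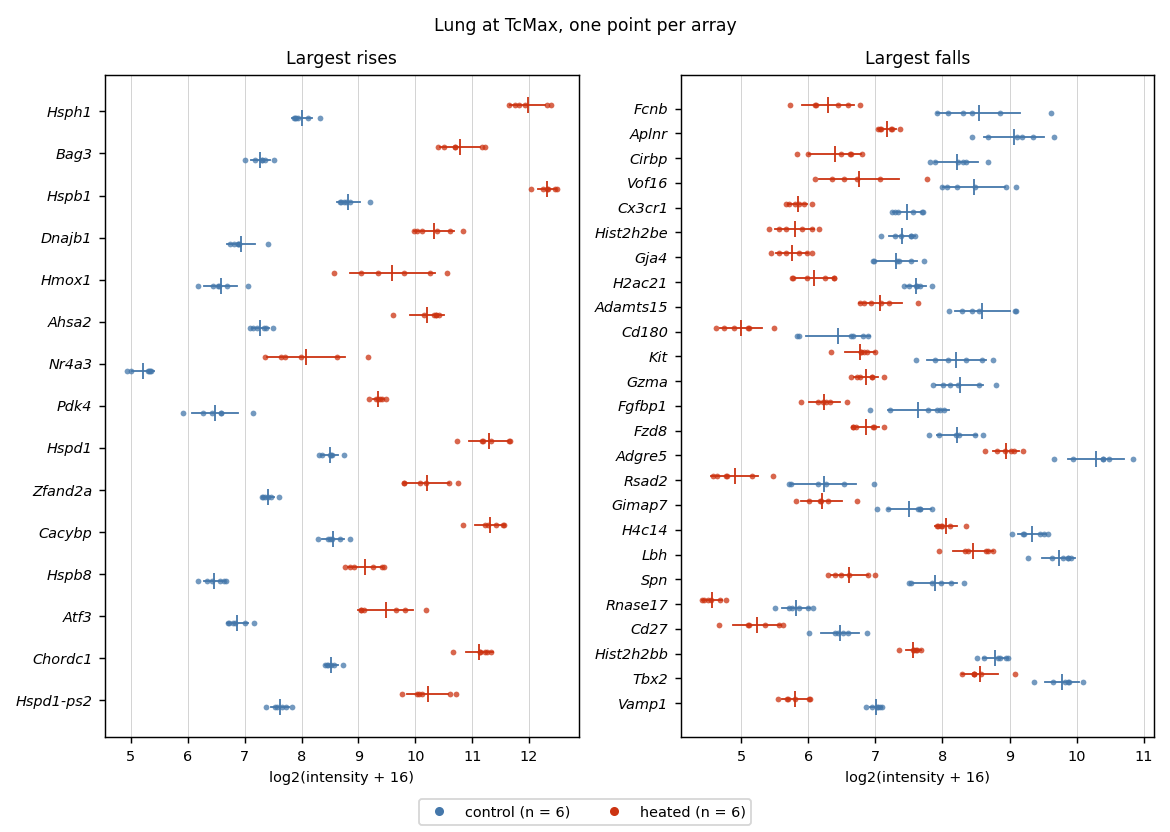
Log2(intensity + 16) of the 15 genes with the largest rises (left) and the 25 with the largest falls (right) in lung at TcMax, 1 point per array, with vertical ticks for group means and horizontal bars for SD (n = 6 control, n = 6 heated). The heated and control arrays do not overlap for any of these genes, as the rule that chose them required.

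The largest rises were those of chaperones, from near the middle of the intensity range to its top. Hsph1, the Hsp110 protein that helps Hsp70 release its clients, lay at 7.86 in the lowest, 7.92 in the median and 8.32 in the highest control, and at 11.64, 11.88 and 12.39 in the heated lungs. It rose by 3.97 ± 0.175 (adjusted p = 2.14e-19), and the lowest heated lung was far above the highest control. Bag3, a cochaperone that guides damaged proteins to autophagy, lay at 7.01, 7.30 and 7.51 in controls and 10.39, 10.70 and 11.22 in heated lungs, a rise of 3.51 ± 0.127 (adjusted p = 1.13e-21). Hspb1, the small heat shock protein that guards actin, rose by 3.49 ± 0.164 from 8.68 to 9.20 in controls to 12.04 to 12.49 in heated lungs. Dnajb1, the main Hsp40 partner of inducible Hsp70, rose by 3.39 ± 0.126 from 6.74 to 7.41 in controls to 9.97 to 10.83. In Hspb1 and Dnajb1 control replicate 6 was the highest control, and it lay below every heated lung. Hspd1, the mitochondrial chaperonin, rose by 2.79 ± 0.155 from 8.31 to 8.74 in controls to 10.73 to 11.66, and the pseudogene Hspd1-ps2, which can share its sequence, by 2.60 ± 0.158. Inducible Hsp70 itself is read by IDs that the annotation gives to several near-identical genes, and these were singled out after their values were seen. The ID for Hspa1b, Hspa1a and Hspa1l lay at 6.58 to 8.26 in controls and 12.94 to 13.38 in heated lungs, a difference of 6.07 ± 0.190 that cannot be assigned to 1 of the 3 genes.

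The promoters of these genes are shown because they hold the repeat that heat shock factor 1 reads. The stretches are from RefSeq on the rat build GRCr8 and run 5′ to 3′ on the strand of the gene, upstream of its start, and capitals mark facing units of a heat shock element (GAANNTTC or TTCNNGAA, which can overlap each other) with any further unit in the same spacing.
Hsph1 (chr12:10427248-10427359, + strand): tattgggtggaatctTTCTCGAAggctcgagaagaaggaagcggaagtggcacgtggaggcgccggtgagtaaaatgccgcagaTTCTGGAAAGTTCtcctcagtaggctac
Hspd1 (chr9:64084247-64084287, - strand): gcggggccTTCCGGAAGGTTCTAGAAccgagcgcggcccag
Hspb1 (chr12:26432388-26432445, - strand): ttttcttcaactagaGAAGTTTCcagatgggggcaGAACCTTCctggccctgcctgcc
Dnajb1 (chr19:41431142-41431167, - strand): gcatcgggaggggcgGAAGGTTCtgg
Bag3 (chr1:192533313-192533350, + strand): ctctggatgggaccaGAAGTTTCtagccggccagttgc
The window searched ran from 250 bases before to 50 after each start, on both strands. Facing units lay in the window of 10 of the 11 genes with the largest rises that had a promoter in the table, of 37 of 127 genes of rising IDs (29.1%), of 4 of 47 genes of falling IDs (8.51%) and of 15.4% of all 27457 promoters. The longer element of 3 alternating units lay in 8 of the 127 (6.30%), in 0 of the 47 and in 0.736% of all promoters. The cAMP response element TGACGTCA lay in 3.94% of rising, 2.13% of falling and 1.91% of all promoters, and the AP-1 motif TGANTCA in 7.87%, 8.51% and 7.33%. A match describes these letters in this window and is not a measured binding site.

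The chaperone lists held rises and no falls, read against the 1.77% of all tested IDs that rose and the median difference of -0.01 over all IDs. The filter on variation used all lung arrays, the heated ones included, so a member could pass it through its own response, and medians of lists are therefore given over all matched genes. Hsp90 and its cochaperones, which mature kinases and hormone receptors, had 17 matched genes with a median of 1.08, of which 11 were tested and 10 called as rises. Among them Ahsa2 rose by 2.93 ± 0.123, Cacybp by 2.75 ± 0.109, Chordc1 by 2.60 ± 0.109 and Fkbp4, which carries the glucocorticoid receptor, by 2.60 ± 0.108. The Hsp40 list had 12 matched genes with a median of 0.42, of which 6 were tested and 4 rose, namely Dnajb1, Dnaja1 (2.45 ± 0.104), Dnaja4 (2.28 ± 0.181) and Dnajb4 (1.88 ± 0.103). Of the chaperonins 5 of 10 passed 2-fold and the other 5 were higher by 0.72 to 0.97 at the adjusted p, with Hspe1, the lid of the mitochondrial ring, at 1.98 ± 0.130. In the Hsp70 and Hsp110 list 2 of 7 rose, Hsph1 and Hspa4l (1.56 ± 0.205), and the median over 10 matched genes was 0.42. In the small heat shock protein list 2 of 7 rose, Hspb1 and Hspb8 (2.64 ± 0.129). Its median over 7 matched genes was 0.17 and its lowest difference -0.39. Bag3 and Zfand2a, an arsenite- and heat-inducible partner of the proteasome (2.79 ± 0.134), were the 2 rises among 4 tested genes of the list of heat shock factors, BAG and ubiquitin genes. That list had 15 matched genes with a median of 0.17, and most of them did not pass the filter on variation. Without heated replicates 1 and 2 the Hsp90 list had 8 calls and the chaperonins 4.

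Many stress genes of the endoplasmic reticulum and of the integrated stress response rose. Of 33 matched genes, with a median of 0.76 and a lowest difference of -0.36, 26 passed the filter on variation. Of these, 12 rose by at least 2-fold, against 1.77% of all tested IDs, while the other 14 were higher at the adjusted p alone. Atf3, a transcription factor of the integrated stress response, lay at 6.71 to 7.17 in controls and 9.04 to 10.19 in heated lungs (2.61 ± 0.16). Chac1, which degrades glutathione, rose by 2.18 ± 0.162, Ddit3 (CHOP) by 1.48 and the lumenal Hsp70 Hspa5 (BiP) by 1.16. The collagen-handling members were P4ha1, a prolyl hydroxylase subunit, at 2.13 ± 0.112 and Serpinh1, the collagen chaperone Hsp47, at 1.78 ± 0.115. The count of 12 was the same without heated replicates 1 and 2.

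Immediate early genes, transcription factors and growth signals that cells switch on within minutes, were called in 9 of 24 tested cases, against 1.77% of all IDs, with a median of 0.34 over 31 matched genes. Nr4a3, an orphan nuclear receptor, rose by 2.87 ± 0.194 from 4.93 to 5.35 in controls to 7.36 to 9.16 in heated lungs. Ccn1, a matricellular protein, rose by 2.06 ± 0.205, Fos by 2.05 ± 0.254 and Jun by 1.99 ± 0.152. The heated rats spread more widely than the controls in each of the 4 genes. The list's count was 7 without heated replicates 1 and 2 and 5 without heated replicates 1, 2 and 6, and Egr1 (1.27) and Nr4a1 (1.26) were not called in either setting. Of the MAPK phosphatases and feedback inhibitors, which curb such signalling, 3 of 13 rose, led by Dusp1 at 2.08 ± 0.127, while Dusp10 lay at the 2-fold line and was not called without 1 or another of 7 single arrays. With no fold minimum 8 of the 13 were higher and 1 lower. The median over 17 matched genes was 0.12 and the lowest difference -0.99. This list gave 1 fall without heated replicates 1 and 2, without heated replicates 1, 2 and 6, and with an offset of 1.

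Genes that glucocorticoids induce had 10 rises among 19 tested, against 1.77% of all IDs, and a median of 0.93 over 21 matched genes. Pdk4, which turns cells from glucose to fat oxidation, lay at 5.92, 6.50 and 7.14 in controls and 9.19, 9.36 and 9.48 in heated lungs (2.86 ± 0.383). Zbtb16, a transcription repressor, lay at 6.20 to 7.10 in 5 controls, 9.92 in control replicate 6 and 9.69 to 10.01 in heated lungs (2.77 ± 0.336). Tsc22d3, the glucocorticoid-induced leucine zipper, rose by 2.16 ± 0.22 from 7.29 to 9.55 in controls to 9.86 to 10.41. Control replicate 6 therefore lay within the heated range for Zbtb16 and just below it for Tsc22d3. The clock gene Per1 lay at 8.12 to 8.39 in controls 1 to 4, at 9.70 in control replicate 5, at 9.77 in control replicate 6 and at 9.87 to 10.18 in heated lungs (difference 1.24 ± 0.268). Without control replicate 6 the difference was 3.35 for Zbtb16, 2.48 for Tsc22d3 and 1.45 for Per1. Per1 was the only call among 13 tested clock genes.

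Single genes of other lists also rose, read against the 1.77% of all tested IDs that rose. Hmox1, which breaks down haem, lay at 6.19, 6.55 and 7.07 in controls and 8.57, 9.57 and 10.56 in heated lungs (3.02 ± 0.310), and was the only one of 9 tested NRF2 and haem genes to be called. Nqo1, another target of NRF2, was lower by 0.82 at the adjusted p. The osmolyte carrier Slc5a3, which imports myo-inositol, rose by 2.42 ± 0.310 and the amino acid carrier Slc38a2 by 1.12 ± 0.0753, and they were the 2 calls among 14 alveolar transport genes. Of 28 cytokine, chemokine and NF-kB response genes 4 rose, Socs3 (1.63 ± 0.161), Ptgs2 (1.30 ± 0.238), Il1a (1.29 ± 0.163) and Cxcl1 (1.01 ± 0.264), the last not called without 1 or another of 6 single arrays. Plat, the tissue plasminogen activator of endothelium, was the 1 call among 16 coagulation genes and rose by 1.42 ± 0.145 from 8.16 to 8.53 in controls to 9.25 to 10.05. Gdf15, a stress hormone, was the 1 call among 19 BCL2 family and p53 target genes (1.46 ± 0.175). With no fold minimum 6 genes of the cytokine list were higher and 5 lower. These counts were 5 and 5 in the BCL2 family and p53 list, 2 and 3 in the coagulation list and 3 and 2 in the transport list. Of all tested IDs 9.97% were higher and 12.0% lower. The medians over matched genes were 0.05, -0.07, 0.13 and -0.06 in that order. With an offset of 1 the first 2 of these lists each gave 1 fall.

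The largest fall of a gene with a single symbol was that of Fcnb, followed by Aplnr, Cirbp, Vof16 and Cx3cr1. Fcnb, a ficolin of the lectin complement pathway made by myeloid cells, lay at 7.92, 8.38 and 9.62 in controls and 5.73, 6.28 and 6.78 in heated lungs, and fell by 2.24 on the log2 scale (SE 0.288, adjusted p = 1.75e-07). Aplnr, the apelin receptor of endothelium, fell from 8.44, 9.15 and 9.66 to 7.03, 7.16 and 7.37 (-1.89 ± 0.177). Cirbp, an RNA-binding protein induced by cold, fell from 7.82, 8.27 and 8.68 to 5.83, 6.56 and 6.80 (-1.82 ± 0.152). Rbm3, its cold-inducible relative, was lower by 0.75 without reaching 2-fold. Cx3cr1, the fractalkine receptor of patrolling monocytes, fell from 7.25, 7.45 and 7.72 to 5.67, 5.84 and 6.05 (-1.63 ± 0.174). The IDs shared by the ribonuclease genes Rnase17 and Rnase3 were singled out after their values were seen, and the larger difference was -2.42 ± 0.222 (8.52 to 9.41 in controls, 5.98 to 7.07 in heated lungs). In bulk tissue, fewer cells of a type and less RNA per cell cannot be told apart.

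The other falls among the 25 largest ran from -1.71 to -1.21. Transcripts of core histones were among them, Hist2h2be (-1.61 ± 0.138), H2ac21 (-1.52 ± 0.159), H4c14 (-1.28 ± 0.154) and Hist2h2bb (-1.22 ± 0.141), genes of a multigene family whose copies can share probes. Secreted and surface signals were Adamts15, a proteoglycan-cleaving metalloprotease (-1.52 ± 0.283), Fgfbp1, which carries fibroblast growth factors (-1.40 ± 0.223), and Fzd8, a Wnt receptor (-1.36 ± 0.155). Adgre5, the adhesion receptor CD97 of leukocytes, fell from 9.66 to 10.83 in controls to 8.64 to 9.20 (-1.34 ± 0.174), and Spn, the leukocyte sialophorin CD43, from 7.50 to 8.32 to 6.30 to 6.99 (-1.27 ± 0.16). Tbx2, a T-box factor of lung mesenchyme, fell by 1.22, Vamp1, a vesicle fusion protein, by 1.21, the transcription cofactor Lbh by 1.27 and Vof16 by 1.71.

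None of 28 tested pan-endothelial genes reached a called change, while 11 were lower and 4 higher at the adjusted p, where 12.0% of all tested IDs were lower and 9.97% higher. The median over 29 matched genes was -0.29 against -0.01 over all IDs. Cdh5, the cadherin of endothelial junctions, lay at 9.66, 10.21 and 10.65 in controls and 9.67, 10.32 and 10.65 in heated lungs (0.02 ± 0.176, adjusted p = 0.963). Tek (-0.24 ± 0.172), Vwf (-0.34 ± 0.180) and Sox17 (0.16 ± 0.161) also did not pass, while the transcription factor Sox18 was lower by 0.64 ± 0.199 (adjusted p = 0.0161) and the angiopoietin coreceptor Tie1 by 0.74, both short of 2-fold. The tight junction gene Cldn5 was the largest difference of the list, at 7.93, 8.37 and 8.75 in controls and 8.94, 9.27 and 9.55 in heated lungs (0.91 ± 0.201, adjusted p = 0.000623), with no overlap and short of 2-fold. Among 27 tested genes of endothelial subsets 3 fell and 1 rose, against 0.630% and 1.77% of all IDs. These falls were Aplnr, Gja4, the arterial gap junction protein connexin 37 (6.96, 7.34 and 7.73 to 5.45, 5.76 and 6.05, -1.55 ± 0.155), and Kit, a receptor of mast cells and, in mouse lung, of capillary endothelium (7.60, 8.21 and 8.75 to 6.34, 6.81 and 7.0, -1.44 ± 0.179). The rise was Edn1, the vasoconstrictor endothelin, at 7.36 to 8.38 in controls and 8.47 to 9.40 in heated lungs (1.06 ± 0.187), just past 2-fold and not called without heated replicate 3 or control replicate 2. The mean of the matched pan-endothelial genes overlapped between groups (8.54 to 9.36 in controls, 8.50 to 9.08 in heated lungs). None of 9 tested mast cell and basophil genes was called, and Hdc, which makes histamine, was lower by 0.66 ± 0.137.

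Of 29 tested T lymphocyte genes 4 fell, against 0.630% of all IDs, and none rose. With no fold minimum 16 were lower and 1 higher, against 12.0% and 9.97% of all IDs, and the median over 30 matched genes was -0.49. The 4 were the lymphocyte GTPases Gimap7 (7.03, 7.65 and 7.84 to 5.82, 6.18 and 6.72, -1.30 ± 0.172), Gimap9 (-1.08 ± 0.165) and Gimap6 (-1.02 ± 0.157), and the costimulatory receptor Cd27 (-1.23 ± 0.180). Gimap genes are also active in endothelium, and Gimap6 lay close enough to 2-fold that quantile normalization left it uncalled. Of the defining genes, the receptor chain Cd3g was lower by 0.94 ± 0.232 and Cd8a by 0.78 ± 0.183 at the adjusted p, and Cd3e differed by -0.53 ± 0.233 (adjusted p = 0.106). The list's count of falls was 5 without heated replicates 1 and 2, 3 without heated replicates 1, 2 and 6, and 10 with an offset of 1, and its mean level lay at 6.39 to 6.94 in controls and 5.94 to 6.45 in heated lungs. In the natural killer list Gzma, the protease granzyme A, was the only call of 22 (7.86, 8.17 and 8.80 to 6.64, 6.85 and 7.14, -1.40 ± 0.187), 8 genes were lower at the adjusted p and the median over 25 matched genes was -0.24. None of 17 tested B lymphocyte genes was called (1 fell without heated replicates 1 and 2), 3 were lower at the adjusted p, and Bank1, a B cell scaffold protein, was lower by 0.84 ± 0.198.

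Myeloid genes did not move as 1 block. Of 33 tested monocyte and macrophage genes 2 fell, against 0.630% of all IDs. They were Cx3cr1 and Cd180, a Toll-like receptor relative that B cells also carry (5.83, 6.65 and 6.89 to 4.62, 5.01 and 5.49, -1.45 ± 0.217). At the adjusted p 9 were lower and 3 higher, against 12.0% and 9.97% of all IDs, and the median over 35 matched genes was -0.11. The macrophage gene Cd68 differed by -0.02 ± 0.270, the lipopolysaccharide coreceptor Cd14 was lower by 0.65 ± 0.149 at the adjusted p, and Mrc1, the mannose receptor, was higher by 0.55 ± 0.172 at the adjusted p. Of 19 tested genes of the neutrophil list 2 fell and 1 rose, against 0.630% and 1.77% of all IDs. Fcnb and Rnase17 (-1.25 ± 0.155) fell and Cxcr1, a chemokine receptor of neutrophils, rose by 1.28 ± 0.262 with overlapping groups (7.65 to 9.29 in controls, 9.13 to 10.29 in heated lungs). Rnase17 lay at 5.50 to 6.07 in controls and 4.42 to 4.78 in heated lungs, near the low end of the scale. Other IDs are shared by it and Rnase3, and whether neutrophils are its source was not tested. The neutrophil-defining genes S100a9 (-0.15 ± 0.357), Csf3r (-0.13 ± 0.328) and Cxcr2 (-0.70 ± 0.301) did not pass, and the list's mean lay at 5.86 to 6.36 in controls and 5.82 to 6.03 in heated lungs. Ptprc, the pan-leukocyte CD45, singled out after its values were seen, was higher by 1.12 ± 0.118 and under 2-fold (0.96) without heated replicates 1 and 2. Red cell and platelet genes gave no call among 10 tested, with Hbb at 10.73 to 11.86 in controls and 10.82 to 12.04 in heated lungs.

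Epithelial genes gave a single call, the fall of Cldn4. Among 8 tested alveolar type 2 genes, 11 alveolar type 1 genes and 23 airway genes none was called. However, 1 type 1 gene fell under quantile normalization, with an offset of 1, and without heated replicates 1, 2 and 6. At the adjusted p alone 3 type 2 genes, 2 type 1 genes and 1 airway gene were lower, and 0, 1 and 1 were higher. Over all tested IDs 12.0% were lower and 9.97% higher. The list medians over matched genes were -0.17, -0.08 and -0.31, against -0.01 over all IDs. The surfactant genes varied so little that they did not pass the filter on variation, and they were tested without it. Sftpc lay at 12.49, 12.58 and 12.65 in controls and 12.46, 12.58 and 12.66 in heated lungs (0.00 ± 0.0830, adjusted p = 0.989 over all IDs). Sftpa1 (0.02 ± 0.106), Sftpb (-0.05 ± 0.111), the type 1 cell receptor Ager (0.13 ± 0.111) and the club cell gene Scgb1a1 (-0.02 ± 0.0771) did not pass in that test either. Sftpc, Sftpa1 and Scgb1a1 lay near the top of the intensity range, and how well the arrays register changes there was not tested. Aqp5, the water channel of type 1 cells, was lower by 0.43 ± 0.0992 in that test (adjusted p = 0.0015), with 10.69 to 10.98 in controls and 10.14 to 10.73 in heated lungs. Gprc5a, a retinoic acid-induced receptor of type 1 cells, was lower by just under 2-fold at the adjusted p (9.40 to 9.87 in controls, 8.28 to 9.29 in heated lungs), with heated replicate 6 the highest heated lung. Etv5, a factor that maintains type 2 cells, was lower by 0.53 ± 0.134. The tight junction gene Cldn4 was the only call among 13 tested pan-epithelial and junction genes (6.39, 6.60 and 7.35 to 5.26, 5.56 and 6.19, -1.09 ± 0.278, adjusted p = 0.00289), and it was under 2-fold without control replicate 1 (-0.97) and without heated replicates 1 and 2 (-0.98). With Cldn4, 4 of these 13 genes were lower at the adjusted p and 0 higher, and the median over 25 matched genes was -0.11. The mean of the alveolar type 2 list lay at 9.97 to 10.33 in controls and 9.88 to 10.26 in heated lungs.

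**Figure D3:**
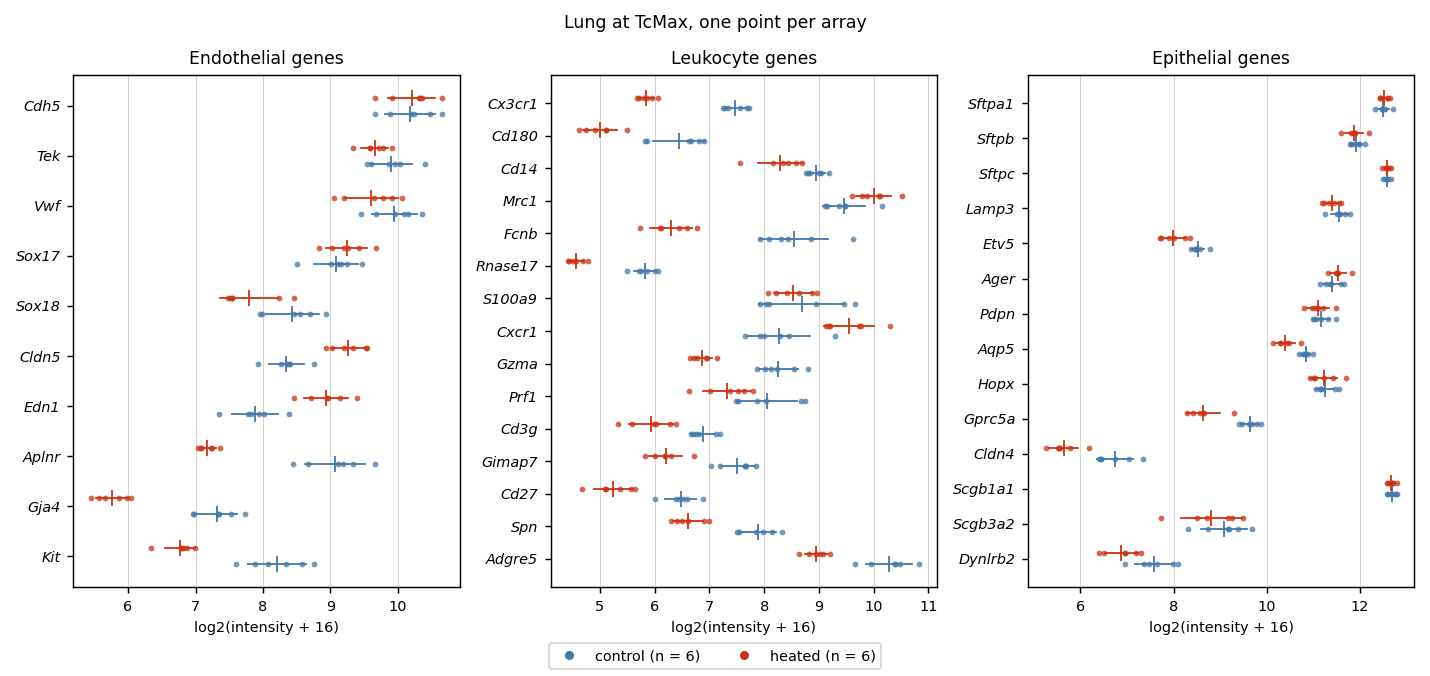
Log2(intensity + 16) of endothelial, leukocyte and epithelial genes in lung at TcMax, 1 point per array, with vertical ticks for group means and horizontal bars for SD (n = 6 control, n = 6 heated). Aplnr, Gja4 and Kit lie lower in every heated lung than in any control, whereas Cdh5, Sftpc and Scgb1a1 overlap fully.

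Interferon-response genes, which cells keep at a low level and raise upon viral signals, were lower in most of the tested cases. Of 19 tested 3 fell, against 0.630% of all IDs. With no fold minimum 14 were lower, against 12.0%, and 2 higher, against 9.97%, and the median over 25 matched genes was -0.51. The called genes were Rsad2, the antiviral viperin (5.71, 6.20 and 6.98 to 4.57, 4.78 and 5.47, -1.32 ± 0.252), Rtp4 (-1.10 ± 0.137) and the guanylate-binding protein Gbp5 (-1.03 ± 0.158), the last not called without 1 or another of 4 single arrays. Against these, Bst2 (tetherin) was higher by 0.95 with no overlap. The count of falls was 5 without heated replicates 1 and 2 and 7 without heated replicates 1, 2 and 6. Of 29 vasoactive genes 2 rose and 1 fell, against 1.77% and 0.630% of all IDs. Edn1 and Npr3, the clearance receptor of natriuretic peptides, rose and Aplnr fell, with Npr3 at 6.49, 6.71 and 7.37 in controls and 8.39, 8.93 and 9.13 in heated lungs (1.97 ± 0.260). With no fold minimum 10 of the 29 vasoactive genes were lower and 3 higher, against 12.0% and 9.97% of all IDs. The median over 34 matched vasoactive genes was -0.17.

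The remaining lists held no call. These were dendritic cell genes (10 tested), fibroblast and matrix genes (18), smooth muscle and pericyte genes (16), mesothelial genes (9), cardiac muscle genes (13), nerve and Schwann cell genes (4), adipose genes (7), hypoxia and glycolysis genes (16), angiogenic and morphogen genes (35), cell cycle genes (27) and constant reference genes (3). Their largest single differences included Dll1, a Notch ligand (0.98 ± 0.159), Cd83, a dendritic cell activation marker (0.78 ± 0.121), Pfkfb4, a regulator of glycolysis (-0.76 ± 0.138), Cdkn2c, a cell cycle inhibitor (-0.73 ± 0.131), Wnt2 (-0.67 ± 0.219) and Pdgfrb of pericytes (-0.62 ± 0.147). Angiogenic and morphogen genes were higher in 9 and lower in 7 cases at the adjusted p, and other settings gave them calls: 1 rise under quantile normalization and without heated replicates 1 and 2, 2 falls without heated replicates 1, 2 and 6, and 4 rises and 1 fall with an offset of 1. The dendritic cell list and the hypoxia and glycolysis list each gave 1 fall with an offset of 1.

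**Figure D4:**
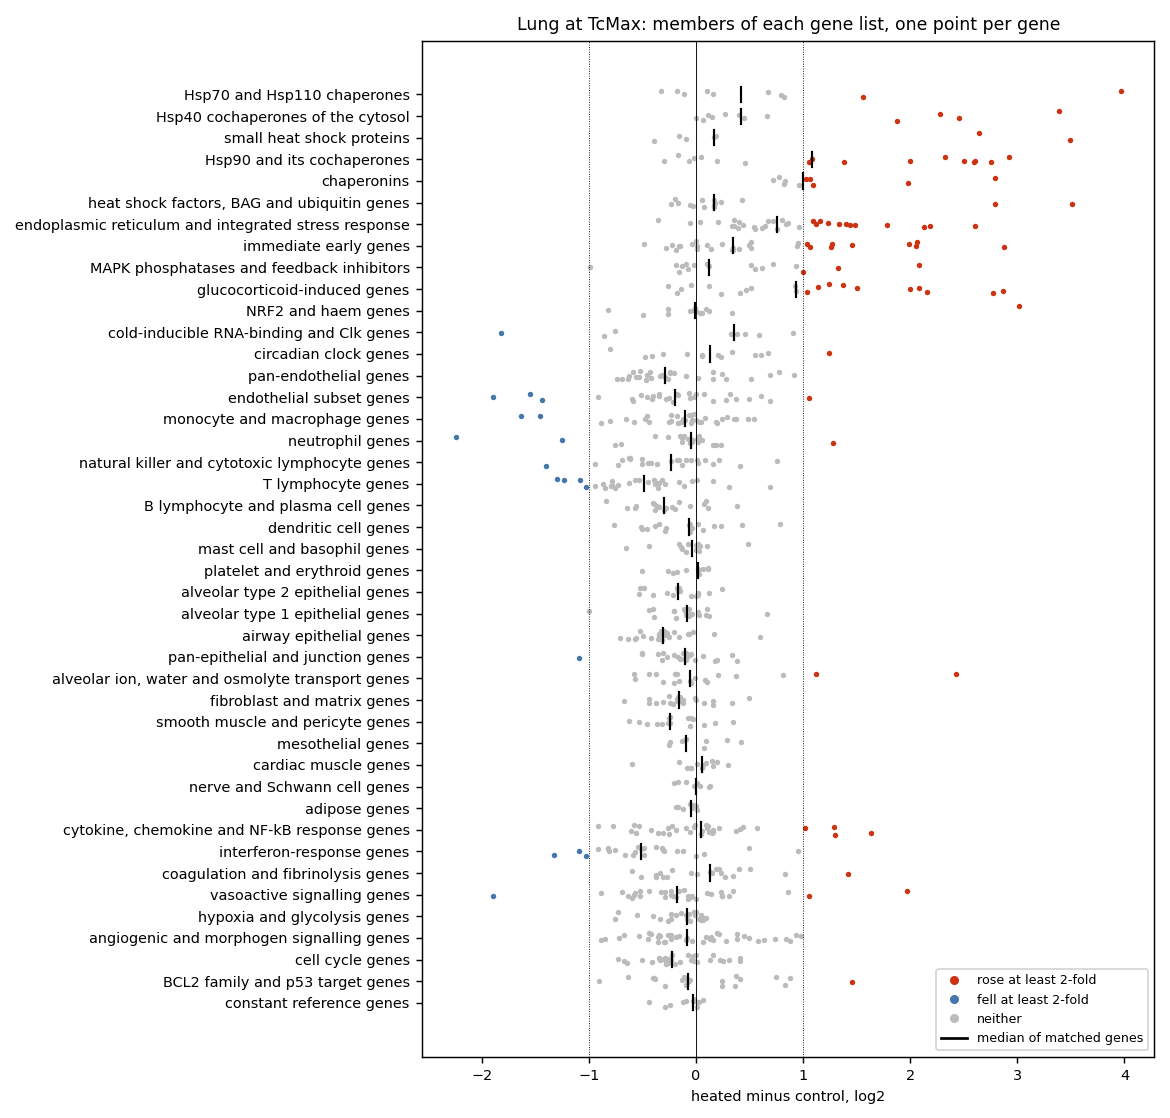
Difference heated minus control (log2) of every matched gene in each gene list in lung at TcMax, 1 point per gene, with a line at the median of the matched genes. The chaperone, endoplasmic reticulum and glucocorticoid lists lie mostly above 0, and the T lymphocyte and interferon lists mostly below.

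A day after heating no ID was called. At 24 h 0 IDs passed the adjusted p in limma (320 had an unadjusted p under 0.05, 10 of them at 2-fold, and 0 passed without moderated variances), and at 48 h 0 IDs passed (955 unadjusted, 8 of them at 2-fold, and 1 past the adjusted p without moderated variances). The IDs that rose at TcMax had a median difference of 0.05 at 24 h and 0.02 at 48 h with the largest at 1.0 at 24 h, while those that fell had medians of -0.12 and -0.07. The difference between the TcMax and the 24 h response was tested directly, and 262 IDs were higher (1.79%) and 83 lower (0.568%) at TcMax. This contrast shares the TcMax arrays with the first, so its values are given side by side. Hsph1 differed by 3.97 at TcMax and 0.28 at 24 h (difference of responses 3.69 ± 0.247, adjusted p = 9.27e-14), and Aplnr by -1.89 and -0.15 (-1.74 ± 0.250, adjusted p = 4.26e-06). Fcnb was lower at TcMax (-2.24) and at 0.53 at 24 h (-2.77 ± 0.408), and Cx3cr1 was at -1.63 and -0.39 (-1.24 ± 0.246). Pdk4 was at 0.85 at 24 h, the largest of the named rises and falls at that time, and at -0.30 at 48 h. Of the calls at TcMax, 226 of the 258 rises and 55 of the 92 falls were also called in this difference of responses. Among the rest were Cldn4 (-0.85 ± 0.393, adjusted p = 0.191) and Rpp25, for which the change of response did not pass.

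**Figure D5:**
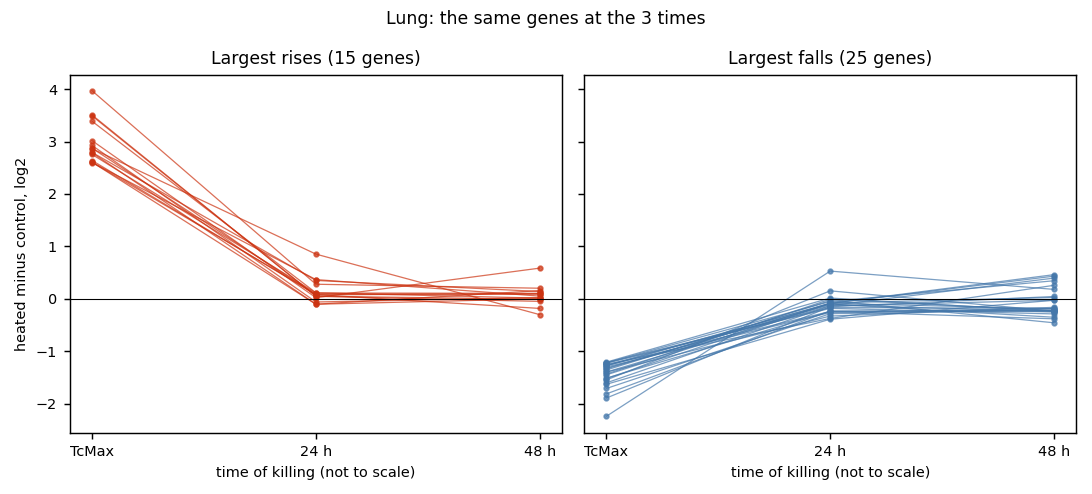
Heated minus control difference (log2) in lung at TcMax, 24 h and 48 h for the 15 genes with the largest rises (left) and the 25 with the largest falls (right) at TcMax, 1 line per gene. All lines start away from 0, as the rule that chose the genes required, and lie within 0.85 of 0 at 24 h and 0.58 at 48 h.

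The response of lung was set against that of heart, liver and kidney of the same rats, taking the difference between organs within each rat (5 heated and 6 control rats for heart, 6 and 6 for liver and kidney). These comparisons share the lung arrays, and organs normalized separately allow only responses to be compared. They tested only the IDs that passed the filter on variation in lung, so genes that varied little in lung could not be called. Without that filter 132 IDs differed from heart, 345 from liver and 158 from kidney. Against heart 59 IDs responded higher in lung (0.404%) and 60 lower (0.411%), against liver 143 (0.979%) and 126 (0.863%), and against kidney 64 (0.438%) and 76 (0.520%). The heart comparison had 119 calls in all, 79 without heated replicate 3, 72 without moderated variances, 49 with an offset of 1 and 41 with the replicate number as a block.

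Chaperone genes differed between organs in both directions. Lung responded less than liver in Hspb1 (3.49 against 5.72, difference -2.23 ± 0.183), Dnaja4 (2.28 against 4.38, -2.10 ± 0.196), Zfand2a (2.79 against 4.79, -2.01 ± 0.186) and the ID shared by Hspa1b, Hspa1a and Hspa1l (6.07 against 7.71, -1.64), and less than heart in Dnajb1 (3.39 against 4.59, -1.14 ± 0.176). It responded more than heart in Bag3 (1.14 ± 0.173), Fkbp4 (1.45 ± 0.174) and Hspe1 (1.1 ± 0.199), more than liver in Fkbp4 (1.45 ± 0.165), Dnaja1 (1.06) and Fkbp5 (1.16), and more than kidney in Cacybp (1.1 ± 0.144). All of these passed the adjusted p and 2-fold. Hsph1 differed by 3.97 in lung, 3.89 in heart, 3.63 in liver and 3.54 in kidney, and no difference from lung passed (0.11 ± 0.214, 0.34 ± 0.185 and 0.43 ± 0.192). Hspd1 rose by 2.79 in lung against 1.22 in heart (difference 1.57 ± 0.170, adjusted p = 0.000195), 1.85 in liver and 1.29 in kidney. Hspb8, a small heat shock protein that works with Bag3, was at 2.64 in lung and 0.89 in heart (1.72 ± 0.186) but 2.58 in liver (0.06 ± 0.175). Chac1 was at 2.18 in lung, 0.40 in heart (1.72 ± 0.208) and 3.51 in liver (-1.33 ± 0.306), so that lung stood between them. Npr3 rose by 1.97 in lung and differed by -0.34 in liver (2.31 ± 0.252, adjusted p = 3.17e-05) and -0.05 in kidney (2.02 ± 0.197), while heart (-0.20) did not pass (2.26 ± 0.593, adjusted p = 0.0819). Gnat1, a transducin subunit known from rod cells, was at 2.21 in lung and -0.28 in liver (2.49 ± 0.188). Tmem252 was at 1.37 and -0.81 in the same pair (2.18 ± 0.276). Against kidney Sostdc1, a secreted antagonist of BMP and Wnt signals, was at 1.21 in lung and -1.02 in kidney (2.23 ± 0.193), and Nuak2, a stress kinase, at 1.38 and -0.64 (2.02 ± 0.152).

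Among the falls Fcnb stood apart from each organ, at -2.24 in lung, -0.13 in heart (-2.0 ± 0.255, adjusted p = 0.000914), -1.0 in liver (-1.24 ± 0.244) and -0.09 in kidney (-2.15 ± 0.232). Kit was at -1.44 in lung and -0.36, -0.14 and -0.36 in heart, liver and kidney (differences -1.08 ± 0.214, -1.30 ± 0.277 and -1.08 ± 0.217, all past the adjusted p). Fgfbp1 was at -1.40 in lung and between -0.06 and 0.14 in the other organs. Aplnr fell by 1.89 in lung and was at -2.06 in heart (0.19 ± 0.290), but at -0.46 in liver (-1.44 ± 0.198) and -0.98 in kidney (-0.92 ± 0.206). Cx3cr1 was at -1.63 in lung and -1.65 in kidney (0.02 ± 0.157, adjusted p = 0.96). Gzma was at -1.40 in lung, -1.87 in liver (0.46 ± 0.189, adjusted p = 0.179) and -0.09 in kidney (-1.31 ± 0.171). Adamts15 (-1.52 in lung, 0.16 in liver, -1.68 ± 0.218) and Vof16 (-1.71, -0.05, -1.66 ± 0.276) differed from liver, Tmem37 (-1.21 in lung, 0.21 in heart, -1.51 ± 0.238) and Klhl6, a gene of B cell signalling (-1.05, 0.40, -1.42 ± 0.291), from heart, and Rpp25 (-1.02 in lung, 0.75 in kidney, -1.77 ± 0.362) from kidney. Control levels of Fcnb, on arrays normalized separately, averaged 8.54 in lung and 5.16 to 5.88 in the other organs.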

How the data were processed

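Total RNA of whole lung was labelled and hybridised by the authors to Affymetrix Rat Gene ST arrays. The deposited values are iterPLIER intensity values on a linear scale, which the authors made for each organ separately in Affymetrix Expression Console 1.1 on annotation of the rat build rn4. The study's methods filter on variation and use an offset of 16 on the log scale, which is not in the deposited intensities, so log2(intensity + 16) was taken here. Groups and replicates came from the sample titles, and all 140 columns matched a sample. Of 29214 transcript IDs, 18644 carry 1 gene symbol in the platform annotation, 962 several and 9608 none, and only the first kind was named by rule.

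The 6 lung groups (35 arrays) were fitted in R 4.3.3 with limma 3.58.1, with moderated variances, on the 50% of IDs (14607) with the larger SD. Calls needed a Benjamini-Hochberg adjusted p under 0.05 and 2-fold, two-sided. Lung was compared with the other organs by the per-rat difference between organs. In 43 gene lists 869 of 968 entries matched an ID (841 distinct genes) and 686 were tested, with the ID of the highest mean level for each gene. Genes were named by rule: the 15 largest rises and 25 largest falls with groups apart (leaving out provisional symbols), up to 4 called members of each list (or the largest difference of a list with none), 62 cell type markers, and 3 genes in each direction for each organ comparison. The genes of the organ comparisons were taken only from IDs called in lung with the same sign, so they favour large responses of lung. The rule, the lists and the comparisons were chosen with earlier results of these data known, so their counts are descriptions. Markers that matched no ID of a single symbol, among them Pecam1, Kdr, Foxj1 and Acta2, have no value here.

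Promoters came from a RefSeq table of build GRCr8 (27457 promoters), matched by gene. Replicate numbers did not pair rats within lung. No 2 arrays were identical. The steps were tested on simulated data. Alternatives were no SD filter, a filter on dim IDs, no moderation, only the TcMax arrays in the fit, an offset of 1, quantile normalization, blocks by replicate number and by the leading digits of the animal tag, no fold minimum, unadjusted p, and each array left out. Leaving out heated replicates 1 and 2, or 1, 2 and 6, was chosen after seeing the data, and the first of these settings also removes every heated lung at TcMax of 1 tag prefix. Probe-level files and injury status were not used here. Plots used matplotlib 3.10.9 under Python 3.11.15.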

Additional observations from a re-analysis of the deposited data

Results flagged for a closer look

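Among 308 groups of 6 arrays looked at for the named genes, 23 arrays stood outside the rest of their group (10 control and 13 heated), where chance gives about 1 in 20 groups. Control replicate 6 accounted for 6 of them. It was the highest control for Hspb1 (9.20 against 8.68 to 8.85 in the others), Dnajb1 (7.41), Fos (6.48), Dusp1 (10.57), Zbtb16 (9.92 against 6.20 to 7.10) and Mrc1 (10.16). Control replicate 1 was highest for the hepatocyte genes Alb (8.19 against 4.52 to 5.68) and Apoa2 (5.05) and lowest for Tmem37 (7.89), and control replicate 5 was highest for Cd4 (8.15).

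Of the heated lungs, replicate 6 was lowest for Ahsa2 (9.61), Chordc1 (10.67), Kit (6.34) and the atrial peptide Nppa (4.74), and highest for Gprc5a (9.29). Replicate 5 was lowest for Hist2h2bb (7.35) and Dusp10 (8.38) and highest for Tbx2 (9.08) and Rpp25 (7.93 against 6.17 to 6.66). Replicate 2 was highest for Dnaja1 (12.27) and Socs3 (8.95), replicate 1 for Cdkn2c (7.40) and replicate 4 for the platelet gene Pf4 (7.36).

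Among the lung arrays at TcMax, transcripts of other organs, which no comparison was about, stood above every control in 3 heated arrays. The mean of 21 hepatocyte genes was 8.81 in replicate 1 and 7.60 in replicate 2 against at most 6.21 in controls, and that of 12 kidney tubule genes was 6.22 in replicate 1 and 6.44 in replicate 6 against at most 5.26. Their part in the other results was not tested beyond leaving these arrays out. They were left out together for the TcMax counts and the difference from 24 h, and only singly for the comparisons with other organs. Lung arrays at 24 h and 48 h, controls among them, also carried such transcripts and were kept.

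Responses differed directly between times and organs for many IDs. The TcMax response of lung differed from the 24 h response for 345 IDs, and it differed from that of heart for 119, of liver for 269 and of kidney for 140.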

How the results depend on the processing

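The 258 rises became 1457 and the 92 falls 1749 with no fold minimum, and the falls were 239 with an offset of 1. The difference between the TcMax and 24 h responses (345 IDs) became 528 with an offset of 1 and 1715 with no fold minimum. Lung against heart (119) became 72 without moderated variances and 49 with an offset of 1, lung against liver (269) 822 and lung against kidney (140) 429 with no fold minimum. With 1 array left out the counts were 242 to 281 rises, 75 to 125 falls (75 without control replicate 3, 125 without control replicate 6), 330 to 378 for the difference from 24 h, 79 to 163 against heart (79 without heated replicate 3), 252 to 353 against liver and 110 to 190 against kidney. The cause of these shifts was not tested. Quantile normalization gave 270 rises (257 of the 258) and 88 falls (87 of the 92), and a filter on dim IDs 205 and 81.

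Replicate numbers do not pair rats within lung, since same-numbered arrays correlated between -0.33 and 0.49 and 2 heated arrays correlated best with their own number. The replicate block gave 258 rises and 93 falls, 344 for the difference from 24 h, and 41 against heart, 279 against liver and 112 against kidney.

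Over 143 tested named genes and all settings 3114 values were computed, of which 0 called values changed sign, 41 lost the call and 18 gained one. Of 83 called named genes 8 lost the call in some setting that tested them, which were Dusp10, Edn1, Gimap9, Gimap6, Cldn4, Cxcl1, Gbp5 and Rpp25. A further 9 (Cd180, Cd27, Chac1, Fos, Gnat1, Nr4a3, Rnase17, Rsad2 and Sostdc1) were not tested with the filter on dim IDs, which left 74 called. Genes near background have only a bounded precision, since the offset of 16 compresses low intensities.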
